A study of Mus musculus with 16 samples.

Results

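The NFAT, EGR and NR4A families are transcription factors that answer to the T cell receptor, and 10 of their genes were followed here in activated naive CD4+ T cells. They were 3 NFAT genes (Nfatc1, Nfatc2 and Nfatc3), 3 EGR genes (Egr1, Egr2 and Egr3), 3 NR4A genes (Nr4a1, Nr4a2 and Nr4a3) and Rcan1, a feedback inhibitor of calcineurin that is itself an NFAT target. Each gene was read from the array probe whose annotation held that symbol alone, and each had 1 such probe. All 10 passed the filter on low values and belong to the 16427 genes tested. The rule that defines the set is a list of symbols and uses no measured value, although the set was drawn up with earlier results of these data known.

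The cells were naive CD4+ T cells, sorted as CD62L high and CD25 negative from spleen and lymph nodes of B6 mice, either wild type (WT) or DEC1 knock-out (KO). DEC1 is a basic helix-loop-helix transcription factor encoded by Bhlhe40. Cells were cultured for 24 h at 1000000 cells per ml with 10% serum and latex beads that carried anti-CD3 alone or anti-CD3 together with anti-CD28. This gave 4 groups of 4 arrays each, WT_CD3, WT_CD3CD28, KO_CD3 and KO_CD3CD28, and the comparisons ask what CD28 engagement adds to a T cell receptor stimulus and whether that depends on DEC1. All groups received anti-CD3, and no unstimulated array was used here, so induction by the T cell receptor itself was not measured. The labels give neither the age of the mice nor how the knockout was made, and the numbered replicates are not stated to be separate mice. The tests below therefore rest on the spread between samples, which can be technical in part.

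As background, ligation of the T cell receptor opens a calcium current, calcium activates the phosphatase calcineurin, and calcineurin strips phosphates from NFAT proteins so that they enter the nucleus. The EGR zinc finger factors and the NR4A orphan nuclear receptors are immediate early genes of the same receptor, switched on through the MAP kinase pathway, calcium and, in part, NFAT. NFAT bound together with AP-1, which costimulation through CD28 supplies, drives cytokine genes such as Il2. NFAT without AP-1, EGR2, EGR3 and the NR4A factors are known instead for anergy, tolerance and exhaustion programs. Nr4a1 and Egr2 are in common use as readouts of T cell receptor signal strength.

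The promoters of these genes are known for elements bound by CREB, by serum response factor and by NFAT, and 5 windows are printed, as the regulatory sequence next to the 3 NR4A genes, Egr2 and Rcan1. They were picked for their matches. Each is the 250 bases before a RefSeq start (mouse, build GRCm38.p6), read 5′ to 3′ along the gene. Capitals mark exact matches on either strand: the core of the cyclic AMP response element (TGACG) in the 3 NR4A windows; that core and the CArG box, the element of serum response factor, in Egr2; and the full response element (TGACGTCA), the NFAT core (GGAAA) and the AP-1 site (TGANTCA) in Rcan1. The full element contains the core on both strands.
Nr4a1: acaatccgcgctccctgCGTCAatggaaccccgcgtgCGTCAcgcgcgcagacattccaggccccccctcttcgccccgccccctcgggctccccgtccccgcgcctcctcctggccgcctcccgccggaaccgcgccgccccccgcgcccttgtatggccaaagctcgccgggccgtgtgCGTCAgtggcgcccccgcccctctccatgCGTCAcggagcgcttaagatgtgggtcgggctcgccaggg
Nr4a2: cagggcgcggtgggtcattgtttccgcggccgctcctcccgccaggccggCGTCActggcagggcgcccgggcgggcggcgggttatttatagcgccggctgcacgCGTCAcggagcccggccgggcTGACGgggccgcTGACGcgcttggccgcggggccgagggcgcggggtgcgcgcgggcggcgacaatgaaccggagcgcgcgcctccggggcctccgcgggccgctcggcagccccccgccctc
Nr4a3: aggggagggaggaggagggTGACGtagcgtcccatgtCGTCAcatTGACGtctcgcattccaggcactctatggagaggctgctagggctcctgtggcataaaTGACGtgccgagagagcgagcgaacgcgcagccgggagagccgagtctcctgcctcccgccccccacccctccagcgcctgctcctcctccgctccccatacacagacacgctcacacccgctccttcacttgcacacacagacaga
Egr2: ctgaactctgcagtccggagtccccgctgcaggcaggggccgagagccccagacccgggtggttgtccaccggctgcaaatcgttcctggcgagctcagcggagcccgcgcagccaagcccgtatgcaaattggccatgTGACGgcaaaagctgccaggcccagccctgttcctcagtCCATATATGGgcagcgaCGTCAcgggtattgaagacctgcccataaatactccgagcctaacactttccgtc
Rcan1: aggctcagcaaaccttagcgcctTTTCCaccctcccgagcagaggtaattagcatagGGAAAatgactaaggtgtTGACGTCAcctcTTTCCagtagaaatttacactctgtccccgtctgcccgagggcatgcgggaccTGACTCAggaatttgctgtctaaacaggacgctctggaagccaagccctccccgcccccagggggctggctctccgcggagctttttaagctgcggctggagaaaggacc

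The windows lie at chr15:101266596-101266845 on the plus strand for Nr4a1, chr2:57124004-57124253 on the minus strand for Nr4a2 and chr4:48045055-48045304 on the plus strand for Nr4a3. That of Egr2 is chr10:67537619-67537868 on the plus strand, the third of 5 RefSeq starts, and that of Rcan1 is chr16:92400079-92400328 on the minus strand, the second of 2 starts. Each NR4A window held 4 matches of the response element core, where 17.8% of 32851 mouse promoter windows of this length held at least 1 and 0.137% held at least 4. In Nr4a1 they began 233, 213, 69 and 40 bases before the start, and in Nr4a3 231, 213, 205 and 147 bases before it. Nr4a1 and Nr4a2 each also held 1 match of the EGR site (GCGNGGGCG, not in capitals above, 60 and 74 bases before the start), which 4.7% of windows held. The Egr2 window held 2 cores (at least 2 in 3.9% of windows) and 1 CArG box (1.47%). The windows of starts 4 and 5 overlap the Egr2 window printed and hold the same matches. The Rcan1 window held the full element (1.55% of windows), 3 NFAT cores (at least 2 in 21.4% and at least 4 in 1.59%) and 1 AP-1 site (6.75%). A match describes letters only, and binding was not measured.

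On the arrays, the labelled cell type and genotype were visible. Cd4 lay between the 93.5 and 96.8 percentiles of the arrays and Cd3e between 95.1 and 98.5. In wild type the log2 level of Bhlhe40 was 7.56 ± 0.42 (SD, n = 4) without anti-CD28 and 9.51 ± 0.71 with it. The knockout levels were 5.53 ± 0.32 and 5.88 ± 0.14, and every knockout array was below every wild-type array. Xist, the RNA of the inactive X chromosome, was above 10 (10.44 to 11.36) in replicate 1 of wild type and replicates 2 and 4 of knockout under both stimuli and 5.09 to 5.80 elsewhere, so both genotypes hold samples of both sexes. Array medians ran from 6.64 to 6.97, and the number of arrays limits the precision. Like-numbered replicates deviated from their group means together, so a second fit of each comparison took the replicate number into account as a block. In bulk RNA, fewer cells of a type and less RNA per cell cannot be told apart.

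CD28 engagement lowered Nfatc1, Egr1 and Egr2 in both genotypes, lowered Nr4a1 in wild type and Nfatc3 in knockout, and raised Nr4a3 in knockout. With limma and Benjamini-Hochberg adjustment over all genes at 0.05, 4 of the 10 genes were lower and 0 higher in wild type. In knockout 4 were lower and 1 higher. Over all genes tested, 16% were called higher and 13% lower in wild type, and 20.4% higher and 17.6% lower in knockout. The median log2 difference of the 10 genes was -0.41 in wild type and -0.29 in knockout, where the median of all genes was -0.03 and -0.06. When arrays were centred on their medians, the median over all genes became 0.06 and 0.07, and the calls went over all genes from 2630 higher and 2140 lower to 3241 and 1438 in wild type, and from 3357 and 2888 to 4283 and 1430 in knockout. Under that scaling 3 of the 10 were lower in wild type, and 1 lower and 2 higher in knockout.

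**Figure D1:**
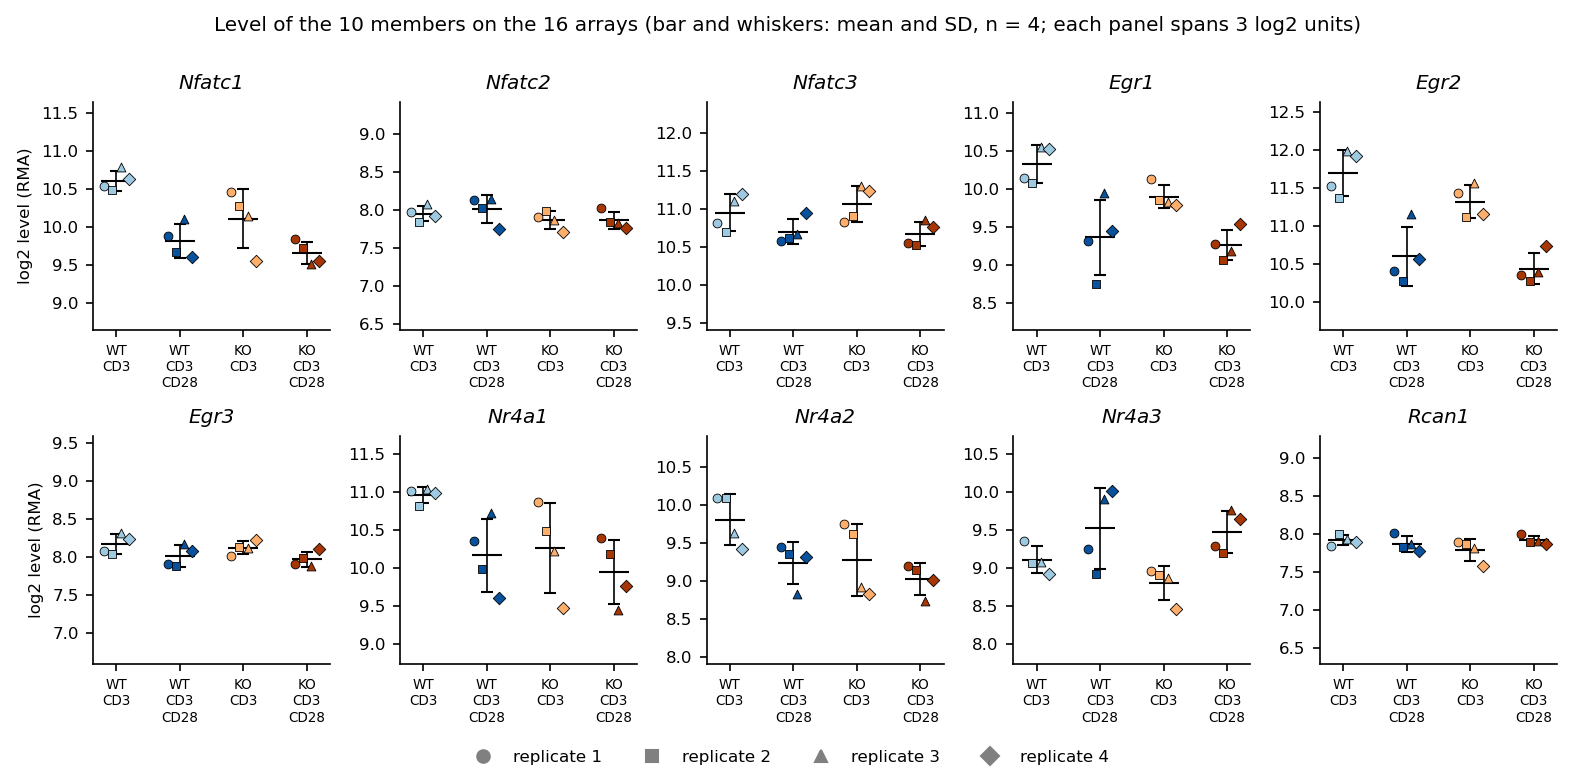
Log2 level (RMA) of the 10 genes on the 16 arrays, 1 panel per gene, grouped by genotype and stimulus, with a symbol per replicate number and bars for the mean and SD (n = 4); every panel spans the same number of log2 units. Egr2 in both genotypes is lower on all arrays with anti-CD28 than on all arrays without it, while Nr4a3 is higher with anti-CD28 mainly in replicates 3 and 4.

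Nfatc1, the NFAT gene whose short isoform is induced by NFAT itself, lies on chromosome 18. In WT_CD3 its log2 levels were 10.53, 10.48, 10.78 and 10.62 (replicates 1 to 4), and in WT_CD3CD28 they were 9.87, 9.66, 10.10 and 9.60. Every costimulated wild-type array was below every array with anti-CD3 alone. The log2 difference of -0.80 (SE 0.16) amounted to a 1.74-fold lower level (adjusted p = 0.000869). It passed the threshold in all 22 alternatives, with values from -0.91 to -0.71.

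In KO_CD3 the Nfatc1 levels were 10.45, 10.27, 10.14 and 9.55, and in KO_CD3CD28 9.83, 9.72, 9.51 and 9.55. Here the groups overlapped, because replicate 4 with anti-CD3 alone was as low as the costimulated arrays. The knockout difference was -0.45 (SE 0.16, adjusted p = 0.0317). That call was lost after centring arrays on their medians (-0.31, adjusted p = 0.178), with only the groups compared in the fit (adjusted p = 0.0684), in replicates 3 and 4 alone (-0.31, adjusted p = 0.366), and without KO_CD3 replicate 1 (-0.33), 2 (-0.39) or 3 (-0.44) or KO_CD3CD28 replicate 3 (-0.40) or 4 (-0.41). Over its 22 alternatives the adjusted p ran from 0.000713 to 0.366.

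Nfatc2, the NFAT protein already present in resting T cells, did not pass the threshold in either genotype. Its mean log2 levels were 7.95 ± 0.10 (SD, n = 4) in WT_CD3, 8.02 ± 0.18 in WT_CD3CD28, 7.87 ± 0.12 in KO_CD3 and 7.87 ± 0.11 in KO_CD3CD28. The 95% interval of the CD28 difference was -0.14 to 0.27 in wild type and -0.21 to 0.20 in knockout, and the sign of the knockout value turned from -0.00 to 0.13 with arrays centred on their medians and to 0.03 with quantile normalization.

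Nfatc3, another calcineurin-regulated NFAT of resting T cells, was at 10.82, 10.91, 11.30 and 11.23 in KO_CD3 and at 10.55, 10.52, 10.85 and 10.76 in KO_CD3CD28. Each costimulated array was below the array of its own number, with differences of -0.47 to -0.27, although the groups overlapped. The difference was -0.40 (SE 0.13, adjusted p = 0.0272). It missed the threshold with median-centred arrays (-0.26, adjusted p = 0.141) and without KO_CD3CD28 replicate 1 (-0.36) or 2 (-0.35) or KO_CD3 replicate 3 (-0.32) or 4 (-0.34), with adjusted p from 0.00046 to 0.141 over the alternatives. In wild type the levels were 10.81, 10.69, 11.10 and 11.20 with anti-CD3 alone and 10.58, 10.61, 10.67 and 10.94 with anti-CD28. That difference of -0.25 (SE 0.13, adjusted p = 0.188) did not pass, but with the replicate number as a block its adjusted p was 0.0223 at the same value, and over the alternatives it ran from 0.0153 to 0.457.

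Rcan1, whose protein binds and restrains calcineurin, stayed within narrow limits, between 7.57 and 8.01 over all 16 arrays. Its CD28 difference was -0.05 (95% interval -0.22 to 0.13) in wild type, with the sign turned under median centring (0.04) and quantile normalization (0.01), and 0.13 (-0.04 to 0.31) in knockout. The knockout value passed only with arrays centred on their medians (0.26, adjusted p = 0.0386), and over the alternatives its adjusted p ran from that value to 0.641.

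Egr1, the EGR factor best known as an immediate early gene, lies on chromosome 18 as well. It was at 10.14, 10.08, 10.55 and 10.52 in WT_CD3 and at 9.31, 8.74, 9.94 and 9.44 in WT_CD3CD28. The groups did not overlap, and replicate 2 with anti-CD28 was the lowest array. The difference was -0.96 (SE 0.19, adjusted p = 0.000821), a 1.95-fold lower level that was called in 22 of 22 alternatives. In knockout Egr1 was at 10.12, 9.85, 9.82 and 9.79 with anti-CD3 and at 9.27, 9.06, 9.18 and 9.53 with anti-CD28. These groups were apart too, with a difference of -0.64 (SE 0.19, adjusted p = 0.0129). The call was lost with median-centred arrays (-0.50, adjusted p = 0.0518) and in replicates 3 and 4 alone (-0.45, adjusted p = 0.108), the lowest adjusted p over the alternatives being 0.00198.

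Egr2, the EGR factor of T cell anergy, showed the largest CD28 difference of the 10 genes in size in both genotypes in this fit. In knockout Nr4a3 was larger in size with median-centred arrays (0.80 against -0.75) and in replicates 3 and 4 alone (1.04 against -0.80). Egr2 was at 11.52, 11.37, 11.99 and 11.92 in WT_CD3 and at 10.40, 10.28, 11.15 and 10.56 in WT_CD3CD28, a difference of -1.10 (SE 0.18, adjusted p = 0.000163). In KO_CD3 it was at 11.43, 11.12, 11.57 and 11.15 and in KO_CD3CD28 at 10.35, 10.28, 10.39 and 10.73, a difference of -0.88 (SE 0.18, adjusted p = 0.000859). Neither pair of groups overlapped. Costimulated levels were 2.15-fold lower in wild type and 1.84-fold lower in knockout, and both calls held in 22 of 22 alternatives, with adjusted p up to 0.00616 and 0.0251.

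Egr3, the relative that shares targets with Egr2, differed far less. Its mean levels were 8.16 ± 0.13 and 8.01 ± 0.14 in wild type without and with anti-CD28, and 8.11 ± 0.09 and 7.97 ± 0.10 in knockout (SD, n = 4). The difference was negative within each of the 4 replicate numbers in both genotypes, from -0.18 to -0.14 in wild type and from -0.23 to -0.11 in knockout. The means of -0.16 (SE 0.09, adjusted p = 0.226) and -0.15 (adjusted p = 0.214) did not pass. With array weights the wild-type value was -0.24 (adjusted p = 0.0262), the lowest over alternatives that reached 0.643.

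Nr4a1 (Nur77) was at 11.01, 10.81, 11.03 and 10.98 in WT_CD3, the tightest of its groups, and at 10.35, 9.98, 10.72 and 9.60 in WT_CD3CD28. The groups did not overlap, and the costimulated arrays were spread over more than 1 log2 unit. The difference was -0.79 (SE 0.27, adjusted p = 0.033), a 1.73-fold lower level. It was called in 15 of 22 alternatives, with adjusted p from 0.00373 to 0.122. It missed with median-centred arrays (-0.70), in replicates 3 and 4 alone (-0.84), and without WT_CD3 replicate 1 (-0.78), 3 (-0.77) or 4 (-0.79) or WT_CD3CD28 replicate 2 (-0.73) or 4 (-0.61).

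In knockout Nr4a1 was at 10.87, 10.48, 10.22 and 9.47 with anti-CD3 and at 10.39, 10.18, 9.44 and 9.76 with anti-CD28. The spread within each group was wider than the difference of -0.32 (SE 0.27, 95% interval -0.88 to 0.25, adjusted p = 0.369).

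Nr4a2 (Nurr1) was at 10.09, 10.09, 9.63 and 9.42 in WT_CD3 and at 9.45, 9.36, 8.83 and 9.32 in WT_CD3CD28. Each costimulated array was below its like-numbered partner, with differences of -0.64, -0.73, -0.80 and -0.10, but the groups overlapped. The difference was -0.57 (SE 0.21), and its adjusted p of 0.0515 lay just outside the threshold. With the replicate number as a block the adjusted p was 0.00167. It also passed without WT_CD3 replicate 4 (-0.70), with quantile normalization (-0.66), with the stricter filter, with only the groups compared and in replicates 1 and 2 alone (-0.68), and over all 22 alternatives it ran from 0.000232 to 0.158. In knockout Nr4a2 was at 9.75, 9.62, 8.92 and 8.83 with anti-CD3 and 9.20, 9.15, 8.73 and 9.01 with anti-CD28. That difference was -0.26 (SE 0.21, adjusted p = 0.35), and in replicates 1 and 2 alone it was -0.51 (adjusted p = 0.00111), against -0.00 in replicates 3 and 4, where it reached its highest adjusted p of 0.995.

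Nr4a3 (Nor1) went the other way. It was at 8.97, 8.91, 8.87 and 8.47 in KO_CD3 and at 9.29, 9.20, 9.77 and 9.65 in KO_CD3CD28, groups that did not overlap. The difference was 0.67 (SE 0.21, adjusted p = 0.016), a 1.59-fold higher level. In wild type it was at 9.36, 9.07, 9.09 and 8.93 with anti-CD3 and at 9.25, 8.92, 9.91 and 10.02 with anti-CD28, a difference of 0.41 (SE 0.21, adjusted p = 0.154) that did not pass.

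The Nr4a3 value depended on the replicate number. Within numbers 1 to 4 the wild-type differences were -0.12, -0.15, 0.82 and 1.09, and the knockout differences 0.32, 0.28, 0.90 and 1.18. Replicates 3 and 4 alone gave 0.95 in wild type (adjusted p = 0.00227) and 1.04 in knockout, whereas replicates 1 and 2 alone gave -0.13 (adjusted p = 0.477) and 0.30 (adjusted p = 0.0859). The labels name no batch that separates the numbers in this way. The wild-type value also passed without WT_CD3CD28 replicate 2 (0.61). The knockout call was lost without KO_CD3CD28 replicate 3 (0.57) or KO_CD3 replicate 4 (0.56), with quantile normalization (0.53) and with array weights (0.48), its adjusted p running from 0.0011 to 0.0859.

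**Figure D2:**
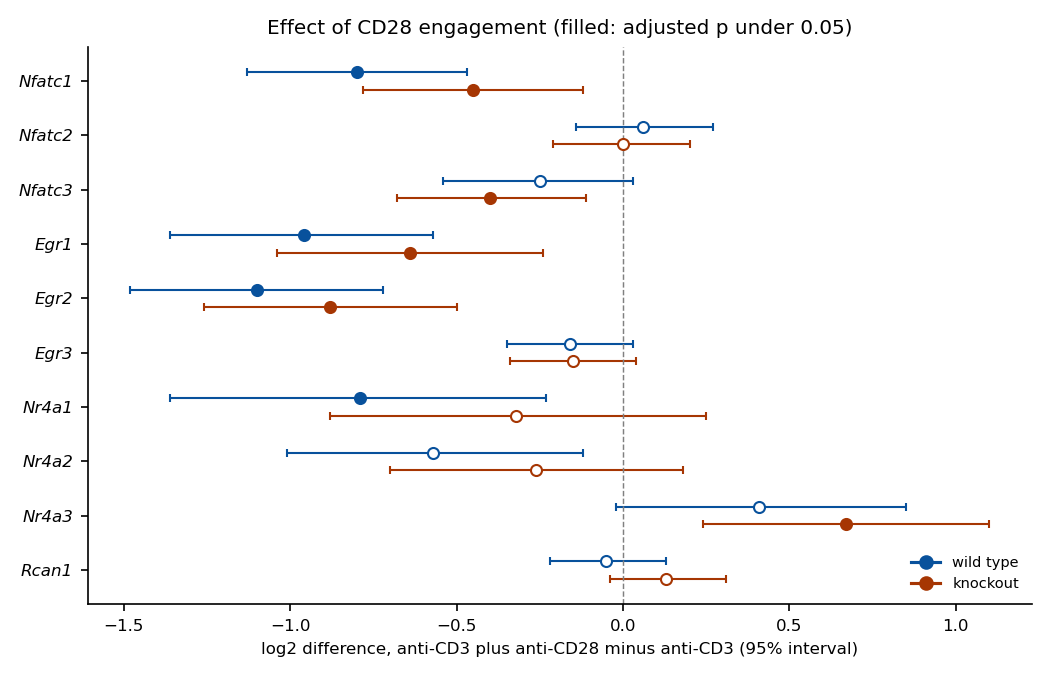
Log2 difference between anti-CD3 plus anti-CD28 and anti-CD3 alone for each gene (x axis) in wild type and knockout, with 95% intervals from limma; filled points have an adjusted p under 0.05. Egr2 lies farthest left at -1.10 and -0.88, Nr4a3 lies right of zero at 0.41 and 0.67, and the intervals of Nfatc2, Egr3 and Rcan1 are short and include zero.

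**Figure D3:**
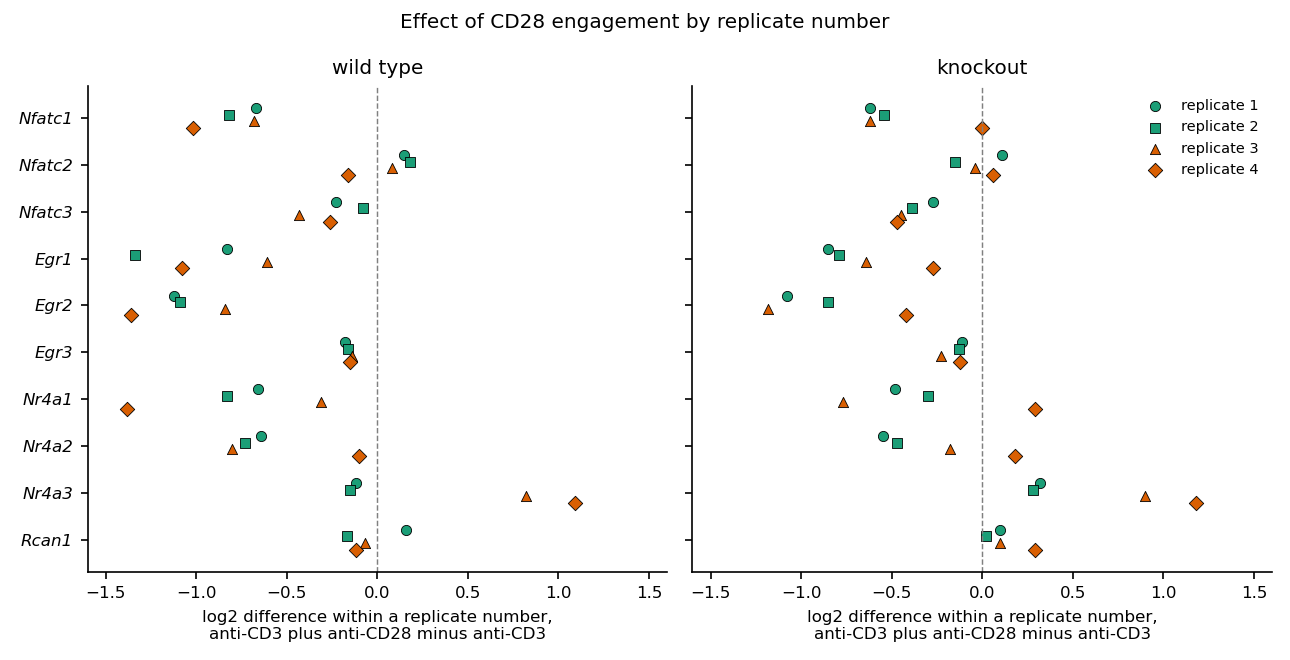
Log2 difference between anti-CD3 plus anti-CD28 and anti-CD3 alone within each replicate number (x axis), for each gene in wild type (left) and knockout (right), with numbers 1 and 2 in green and 3 and 4 in orange. Nr4a3 separates the numbers, with values of -0.15 to 0.32 in numbers 1 and 2 and 0.82 to 1.18 in numbers 3 and 4, while Egr2 is negative in every number.

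Within replicate numbers, Nfatc3, Egr1, Egr2 and Egr3 were lower with anti-CD28 in 4 of 4 numbers in both genotypes. Nfatc1 was lower in 4 of 4 in wild type, but its knockout difference in number 4 was -0.00 (9.55 on both arrays). The share of all genes lower in 4 of 4 numbers was not counted. Nr4a1 and Nr4a2 were lower in 4 of 4 in wild type and 3 of 4 in knockout, the exception being number 4 (0.29 for Nr4a1 and 0.18 for Nr4a2). The groups did not overlap for 4 genes in wild type, all lower (Nfatc1, Egr1, Egr2 and Nr4a1), and for 3 in knockout, with Egr1 and Egr2 lower and Nr4a3 higher. Over all genes, the groups of this comparison did not overlap for 30.4% in wild type and 34.9% in knockout.

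Between genotypes, none of the 10 genes passed the threshold under either stimulus, although 9 of 10 had lower means in knockout under anti-CD3 alone. In that comparison 1.03% of all genes were called (169 of 16427), and the median difference of the 10 was -0.34 where that of all genes was 0.03. An unadjusted p under 0.05 in limma was found for 5 of the 10, but the share of all genes at that cutoff was not counted. Nfatc1 was -0.50 (SE 0.16, adjusted p = 0.0982), and its 4 KO_CD3 arrays (9.55 to 10.45) were all below the 4 WT_CD3 arrays (10.48 to 10.78). It was the 1 gene of the 10 whose groups did not overlap, where 14.7% of all genes were apart. Nr4a1 was -0.70 (SE 0.27, adjusted p = 0.142), Nr4a2 -0.53 (SE 0.21, adjusted p = 0.152), Egr1 -0.42 (SE 0.19, adjusted p = 0.186) and Egr2 -0.38 (SE 0.18, adjusted p = 0.205). Nfatc3 alone had a positive difference, 0.11 (95% interval -0.17 to 0.40), which turned to -0.01 with array weights.

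With the replicate number as a block, 3 genes were lower in knockout under anti-CD3 alone at unchanged differences: Nfatc1 (adjusted p = 0.0308), Nr4a2 (0.0191) and Nr4a1 (0.0493). The block also raised the calls over all genes from 169 to 1954. The highest adjusted p over the alternatives was 0.404 for Nfatc1, 0.351 for Nr4a2 and 0.366 for Nr4a1. Nr4a2 also passed in replicates 1 and 2 alone (-0.40, adjusted p = 0.0309).

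The genotype difference was unequal among the numbers. For Nr4a1 it was -0.14, -0.33, -0.81 and -1.51 in numbers 1 to 4, and for Nfatc1 -0.08, -0.22, -0.64 and -1.07. For Egr1 it was -0.02, -0.23, -0.73 and -0.72, and for Egr2 -0.09, -0.25, -0.42 and -0.77. Each of these was negative in 4 of 4 numbers and larger in size in numbers 3 and 4. Nr4a2 was more even, at -0.33, -0.46, -0.72 and -0.59, and Nr4a3 was at -0.39, -0.15, -0.22 and -0.46. Xist was high in wild-type replicate 1 and knockout replicates 2 and 4, so the sexes of the paired samples matched in number 3 only. With the Xist level as a covariate no call among the 10 genes changed, while the calls over all genes went from 169 to 49.

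Under anti-CD3 plus anti-CD28 the genotypes lay closer. The differences of the 10 genes ran from -0.22 (Nr4a1 and Nr4a2) to 0.05 (Rcan1), with a median of -0.12 beside 0.02 for all genes. None of the 10 passed in limma, 0 had an unadjusted p under 0.05, and 0.00609% of all genes were called (1 of 16427). The 95% intervals were -0.54 to 0.22 for Egr2 and -0.49 to 0.18 for Nfatc1. Over the 22 alternatives 8 of the 10 genes took values on both sides of zero or at it, Nfatc2 (-0.24 to -0.10) and Nr4a2 (-0.35 to -0.12) being the exceptions.

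The test of whether the CD28 effect itself differed between genotypes, the interaction, called 0 of the 10 genes and 0% of all genes in limma, and 0 of the 10 had an unadjusted p under 0.05. The interaction was 0.48 for Nr4a1 (SE 0.38, adjusted p = 0.907), 0.35 for Nfatc1 (SE 0.22, adjusted p = 0.905) and 0.33 for Egr1 (SE 0.27, adjusted p = 0.907). A call in one genotype and not in the other, as for Nr4a1, Nfatc3 and Nr4a3, was therefore not shown to be a difference between genotypes. The CD28 comparisons and the genotype comparisons share groups, so their values are not independent of each other.

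**Figure D4:**
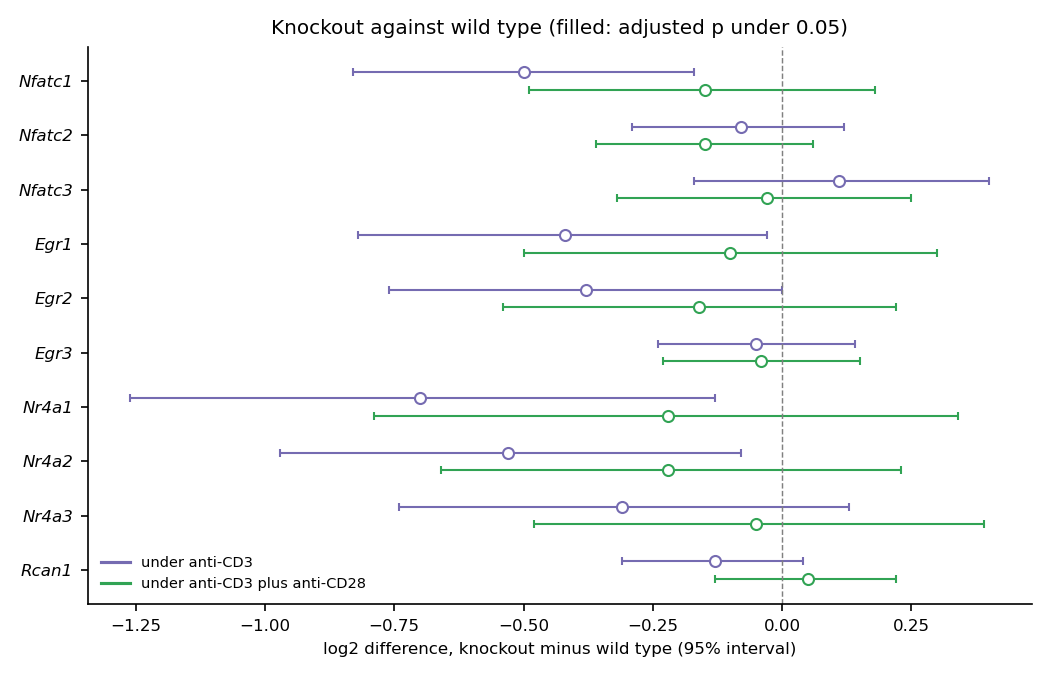
Log2 difference between knockout and wild type for each gene (x axis) under anti-CD3 alone and under anti-CD3 plus anti-CD28, with 95% intervals from limma; open points have an adjusted p of 0.05 or more. Under anti-CD3 alone 9 of 10 points lie left of zero, with Nr4a1 at -0.70, and under both antibodies the points run from -0.22 to 0.05.

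By the root-mean-square difference between log2 values over the 16 arrays, each gene centred on its own mean, the gene most like Egr1 was Pacsin1 (0.136) and next Egr2 (0.169), against a median over all genes of 0.52. Egr2 was closest to Sfxn3 (0.119) and Cotl1 (0.137), Nfatc1 to Dpysl2 (0.103) and Dcaf5 (0.107), and Nr4a1 to Kcnn4 (0.116), a calcium-activated potassium channel, and Coro1a (0.152). For Nr4a3 the closest were Ahcyl2 (0.183) and Prdm2 (0.203), for Nr4a2 Slc29a3 (0.212) and Tmem120b (0.233), and for Nfatc3 Zmym6 (0.0593) and Elf1 (0.0606). Nfatc2, Egr3 and Rcan1 varied little (SD over arrays 0.13, 0.13 and 0.10), and their closest genes were Uck1, Sytl1 and Ninl. All points share the same 16 arrays, and the likeness includes the stimulus itself.

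Upstream of NFAT, genes of calcium entry and calcineurin were lower with anti-CD28 more often than higher. Of 17 tested, 8 were lower and 2 higher in wild type (median -0.31) and 7 lower and 2 higher in knockout (median -0.25). Among all genes 13% were called lower and 16% higher in wild type, and 17.6% lower and 20.4% higher in knockout. With median-centred arrays the counts were 4 lower and 4 higher in wild type and 7 lower and 4 higher in knockout, and with quantile normalization 10 lower and 2 higher in both. Orai2, a subunit of the store-operated calcium channel, was -1.34 (SE 0.18, adjusted p = 3.12e-05) in wild type and -1.18 in knockout. Plcg1, the phospholipase that releases the second messenger for calcium, was -0.65 (SE 0.13) and -0.64, the latter lost in replicates 3 and 4 alone (-0.46). Itpr3, a calcium channel of the endoplasmic reticulum, was -0.59 (SE 0.13) and -0.57, the latter lost there too (-0.51). The calcineurin subunit Ppp3ca was -0.46 (SE 0.15, adjusted p = 0.0259) and -0.87, its wild-type call being lost with median-centred arrays (-0.37), in replicates 3 and 4 alone (-0.26, adjusted p = 0.446) and without WT_CD3 replicate 1 (-0.37) or 4 (-0.45) or WT_CD3CD28 replicate 1 (-0.43), 2 (-0.43) or 3 (-0.45).

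Among 16 tested inhibitors, kinases, exporters and partners of NFAT, 2 were higher and 3 lower in wild type (median -0.10), and 2 higher and 4 lower in knockout (median -0.05). These counts lie near the shares of all genes, 16% higher and 13% lower in wild type and 20.4% and 17.6% in knockout. The medians of all genes were -0.03 and -0.06. Xpo1, the exportin that carries NFAT out of the nucleus, was 0.67 (SE 0.10, adjusted p = 4.42e-05) in wild type and 0.94 in knockout. Dyrk2, a kinase that rephosphorylates NFAT, was -0.66 (SE 0.09, adjusted p = 4.83e-05) and -0.89. Nfatc2ip, which binds NFAT and promotes cytokine transcription, was 0.58 (SE 0.12, adjusted p = 0.00143) and 0.66, the wild-type call being lost in replicates 3 and 4 alone (0.45, adjusted p = 0.149).

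Of 17 relatives, cofactors and upstream regulators of the families, 3 were higher and 7 lower in wild type (median -0.15), and 2 higher and 6 lower in knockout (median -0.09). The shares of all genes were 16% higher and 13% lower in wild type, and 20.4% and 17.6% in knockout. Median centring gave 3 lower and 3 higher in wild type, and 3 lower and 4 higher in knockout, where the median turned to 0.05. Rxra, a nuclear receptor that can pair with Nur77 and Nurr1, was 1.23 (SE 0.18, adjusted p = 4.72e-05) in wild type and 0.97 in knockout. Nfat5, the NFAT that does not need calcineurin, was 0.73 (SE 0.12) and 0.79. Elk3, a ternary complex factor that binds with serum response factor, was -0.89 (SE 0.10, adjusted p = 6.14e-06) and -0.64.

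NFAT target genes of activated T cells that passed the test were higher with anti-CD28 more often than lower. Of 23 tested, 11 were higher and 1 lower in wild type (median 0.62), and 11 higher and 2 lower in knockout (median 0.73). All genes gave 16% higher and 13% lower in wild type, and 20.4% and 17.6% in knockout. The 1 lower in wild type was Fasl, the ligand of the death receptor Fas, named after its value was seen (-0.80, SE 0.29, adjusted p just under the threshold). Its call was lost with median-centred arrays (-0.71, which left 0 lower), quantile normalization (-0.78), no filter, every probe on its own, the mean of a gene's probes, robust variances and the Xist level as a covariate (-0.80 in each), and without WT_CD3 replicate 1 (-0.90), 3 (-0.68) or 4 (-0.66) or WT_CD3CD28 replicate 1 (-0.73), 2 (-0.76) or 3 (-0.82). With the replicate block the wild-type counts were 12 higher and 3 lower. Il2, the T cell growth factor, was 4.02 (SE 0.37, adjusted p = 4.86e-07) in wild type and 3.93 in knockout. Lif, a cytokine of the IL-6 family, was 2.59 (SE 0.20) and 2.68, and Lta, lymphotoxin alpha, was 1.45 (SE 0.21) and 2.09. Cd40lg (0.14) and Vdr (-0.02) did not pass in wild type. Nfatc1, Nfatc2 and Nfatc3 were lower or not called on the same arrays on which most listed targets that were called were higher.

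EGR2 and EGR3 target genes were more often lower. Of 19 tested, 9 were lower and 2 higher in wild type (median -0.15), and 8 lower and 3 higher in knockout (median -0.20). For all genes the shares were 13% lower and 16% higher in wild type, and 17.6% and 20.4% in knockout. Bcl6, a repressor of transcription that marks the follicular helper lineage, was -1.88 (SE 0.17, adjusted p = 4.44e-07) in wild type and -1.83 in knockout. Crtam, an adhesion receptor of activated T cells, was -1.66 (SE 0.12, adjusted p = 3.02e-08) and -1.08. Cdkn1b, the cell cycle inhibitor p27, was -1.58 (SE 0.20, adjusted p = 1.46e-05) and -1.59.

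Genes of tolerance and exhaustion tied to NR4A and NFAT went both ways. Of 17 tested, 4 were higher and 5 lower in wild type (median -0.02), and 6 higher and 4 lower in knockout (median 0.02). Beside them, 16% of all genes were higher and 13% lower in wild type, and 20.4% and 17.6% in knockout. With median-centred arrays 4 were higher and 4 lower in wild type, and 6 higher and 3 lower in knockout (median 0.16). The 3 genes with the smallest p in wild type, named next, were all lower. Nt5e, the ectoenzyme CD73, was -1.83 (SE 0.28, adjusted p = 0.000103) in wild type and -1.73 in knockout. Bcl2l11, the proapoptotic protein BIM, was -1.16 (SE 0.10, adjusted p = 2.32e-07) and -1.05. Tox, a nuclear factor of exhausted T cells, was -0.72 (SE 0.12) and -0.48, the latter lost with median-centred arrays (-0.35).

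**Figure D5:**
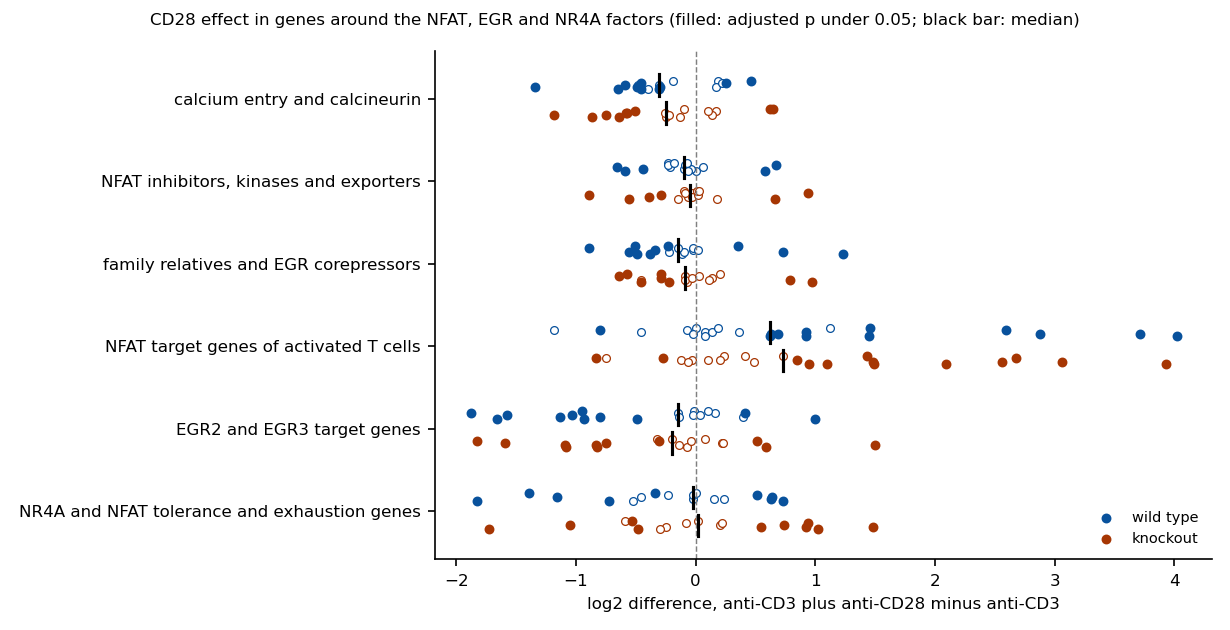
Log2 difference between anti-CD3 plus anti-CD28 and anti-CD3 alone (x axis) for every tested gene of 6 lists around the NFAT, EGR and NR4A factors, in wild type (blue) and knockout (brown); filled points have an adjusted p under 0.05 and black bars are list medians. NFAT target genes reach farthest right, with Il2 at 4.02 and a median of 0.62 in wild type, while EGR target genes reach farthest left, with Bcl6 at -1.88.

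Between genotypes under anti-CD3 alone, 1 gene each of the calcium, NFAT target and EGR target lists was called, and the 3 are named because the counts are small, after their values were seen. Nrn1, neuritin, listed as an EGR target, was -1.35 (SE 0.20, adjusted p = 0.0107) in knockout. Myc was -0.60 (SE 0.13, adjusted p = 0.0421) and Calm3, a calmodulin gene, -0.39 (SE 0.09, adjusted p = 0.0423). Quantile normalization ended the calls of Myc (-0.50) and Calm3 (-0.28), and each was lost on leaving out any of 7 arrays. For Myc these were KO_CD3 replicate 1 (-0.64), 2 (-0.68), 3 (-0.52) and 4 (-0.55) and WT_CD3 replicate 1 (-0.55), 2 (-0.54) and 3 (-0.60). For Calm3 they were KO_CD3 replicate 1 (-0.36), 2 (-0.38) and 4 (-0.40) and WT_CD3 replicate 1 (-0.40), 2 (-0.37), 3 (-0.37) and 4 (-0.42). The Nrn1 call was lost in replicates 3 and 4 alone (-0.96) and with only the groups compared in the fit. With the replicate block, 2 of 17 calcium genes, 5 of 23 NFAT targets and 1 of 16 inhibitors, kinases, exporters and partners of NFAT were lower. Of 19 EGR targets 2 were lower and 1 higher, and 3 of 17 tolerance genes were lower. Over all 16427 genes that fit called 1077 lower and 877 higher. Replicates 1 and 2 alone called 9 NFAT targets, 2 calcium genes and 5 tolerance genes lower. They also called 4 EGR targets lower and 1 higher, with 1080 lower and 308 higher over all genes. Replicates 3 and 4 alone called 0 genes in these lists and 0 of all genes. Some genes, such as Pdcd1 and Ctla4, are in more than 1 list. Under both antibodies none of the listed genes was called in the fit of all arrays without block or weights. In replicates 1 and 2 alone 1 NFAT target was lower there, where 2 of all genes were called.

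Marker genes of other cells moved with anti-CD28 too, and their part in the results above was not tested. Their counts stand beside 16% higher and 13% lower among all genes in wild type, and 20.4% and 17.6% in knockout. Of 9 B cell markers tested, 0 were higher and 4 lower in wild type and 5 lower in knockout, and their mean level per array was 6.66 to 6.83 in WT_CD3 and 6.26 to 6.47 in WT_CD3CD28. In knockout it was 6.55 to 6.85 and 6.32 to 6.40 in the same order. Cd79a lay between the 19.0 and 42.0 percentiles of the arrays and Ms4a1 between 18.6 and 59.6. Of 14 myeloid and dendritic cell markers, 6 were lower in wild type and 8 in knockout, with mean levels per array of 6.57 to 6.63 in WT_CD3, 6.17 to 6.31 in WT_CD3CD28, 6.56 to 6.86 in KO_CD3 and 6.24 to 6.34 in KO_CD3CD28. Csf1r lay between the 27.6 and 33.7 percentiles and was not called, Itgam lay between 26.6 and 48.8 (-0.58 in wild type and -0.71 in knockout, both called), and Lyz2 between 17.2 and 74.6 (-1.44 in knockout, limma adjusted p = 0.016, and 0.055 without KO_CD3 replicate 1). With median-centred arrays the lower B cell markers were 4 in wild type and 1 in knockout, and the lower myeloid markers 4 in each. Of 13 T cell identity genes, 8 were lower and 1 higher in wild type and 5 lower and 1 higher in knockout, with mean levels of 10.88 to 11.07 in WT_CD3 and 10.32 to 10.82 in WT_CD3CD28. Genotype called none of these markers under either stimulus in the fit of all arrays without block or weights. With array weights, 1 of 14 myeloid markers was higher in knockout under anti-CD3. The same count was found in replicates 1 and 2 alone. Over all genes those 2 fits called 185 and 308 higher, in that order, and the replicate block 877 higher and 1077 lower. With the replicate block, under which Nfatc1, Nr4a1 and Nr4a2 were lower in knockout under anti-CD3, 1 T cell identity gene was lower and 1 myeloid marker higher.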

How the data were processed

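Gene expression was measured on 16 Affymetrix arrays. Per the submitters' processing notes, the deposited log2 values were made with RMA, which corrects background, normalizes and summarizes each probe set (genome build: not given in the sources used here). Of 35556 probes, 21789 carried a single gene symbol. Probes had to lie above the 25th percentile of an array on 4 or more arrays. Where a gene had several, the brightest on average was taken, which left 16427 genes. Differences were tested with limma 3.58.1 (R 4.3.3), with 1 mean per group over all arrays and moderated variances, at a Benjamini-Hochberg adjusted p of 0.05 over all genes. The fit was tested on simulated data. Summaries and figures used Python 3.11.15, pandas 2.3.3 and matplotlib 3.10.9.

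The members and gene lists were chosen with earlier results of these data known, so list counts are descriptions. Named besides the members are, from each list, the 3 tested genes with the smallest p for CD28 in wild type and some of the 3 with the smallest p between genotypes under both antibodies (Ppp3ca, Cd40lg and Vdr), the 2 genes most like each member, and checks; others are said to be chosen after their values were seen.

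Deviations of like-numbered arrays from their group means correlated at 0.157 to 0.369 between the 2 wild-type groups and 0.217 to 0.515 between the knockout groups. Between genotypes the correlations were 0.181 to 0.453 (anti-CD3) and 0.201 to 0.586 (both antibodies), so the replicate number was fitted as a block as well. Other alternatives covered scaling, the filter, the probe, the variance model, array weights, the samples in the fit, the sets of replicate numbers, the Xist level and leaving out each array. Protein sequences were not used here.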

Additional observations from a re-analysis of the deposited data

Results flagged for a closer look

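Egr1 in KO_CD3 replicate 1 was at a log2 level of 10.12, apart from the other arrays of its group at 9.79 to 9.85. The gap was 0.832 of the group's range, just past Dixon's critical value for 4 samples. Of 40 groups of 4 arrays examined this was the 1 past it, and chance gives about 1 in 20. The CD28 difference of Egr1 in knockout was called with and without any single array.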

How the results depend on the processing

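With the replicate number as a block, 3 of the 10 genes were lower in knockout under anti-CD3 (Nfatc1, Nr4a1 and Nr4a2) and Nfatc3 and Nr4a2 were called lower with CD28 in wild type; the block changed no other call among them. The cause of the changes listed here was not tested. The count of called genes for CD28 in knockout went from 5 to 3 with median-centred arrays and in replicates 3 and 4 alone. For knockout against wild type under anti-CD3, 2 of the 10 were called with the set of replicate numbers as a block and 1 in replicates 1 and 2 alone. In that comparison the calls over all genes were 169, against 261 with median centring, 597 with array weights, 5 with only the groups compared, 1954 with the replicate block, 1254 with the set as a block, 1388 in replicates 1 and 2 alone, 0 in replicates 3 and 4 alone and 49 with the Xist level. Replicates 3 and 4 alone gave 2650 calls for CD28 in wild type and 2896 in knockout. Replicates 1 and 2 alone gave 2 calls between genotypes under both antibodies and 80 for the interaction.

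Leaving out each array gave 3 to 4 members and 3947 to 4983 genes for CD28 in wild type, and 3 to 4 members and 5171 to 6242 genes in knockout. It gave 0 members and 7 to 452 genes between genotypes under anti-CD3, 1 gene under both antibodies and 0 for the interaction. The fit of only the groups compared gives no interaction.

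Values that changed sign were small and never called, except Nr4a3 in wild type, whose value of -0.13 in replicates 1 and 2 alone stands against a called 0.95 in replicates 3 and 4. For CD28, Nfatc2 turned to -0.04 in wild type in replicates 3 and 4, and in knockout to 0.13 with median centring, 0.03 with quantile normalization and 0.01 in replicates 3 and 4. Rcan1 in wild type turned to 0.04 with median centring and 0.01 with quantile normalization. Between genotypes under anti-CD3, Nfatc3 turned to -0.01 with array weights, and Nfatc2 to 0.04 and Egr3 to 0.00 in replicates 1 and 2. Under both antibodies, replicates 1 and 2 gave 0.01 for Nfatc1, 0.14 for Egr1, 0.05 for Egr3, 0.12 for Nr4a1 and 0.16 for Nr4a3, and array weights 0.01 for Egr1, 0.01 for Egr3 and 0.06 for Nr4a3. For the interaction, Nfatc2 turned to 0.05 in replicates 3 and 4, and Egr3 to -0.03 there and with quantile normalization. On leaving out single arrays, Nfatc2 for CD28 in knockout ran from -0.06 to 0.04, and under both antibodies Nfatc3 ran from -0.09 to 0.05, Egr1 from -0.30 to 0.10, Egr2 from -0.26 to 0.03, Egr3 from -0.09 to 0.01 and Nr4a3 from -0.25 to 0.12. The Egr3 interaction ran from -0.04 to 0.06.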

Other observations

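Among genes that mark subsets of T cells, 5 of 8 tested markers of CD8 and NK cells were higher and 2 lower with anti-CD28 in wild type, and 5 higher and 3 lower in knockout. Of 8 markers of regulatory T cells, 2 were higher in wild type and 4 in knockout, and 0 were lower. The CD28 shares over all genes were 16% higher and 13% lower in wild type, and 20.4% and 17.6% in knockout. Cd8a, at the 49.3 to 65.5 percentiles of the arrays, was 0.73 higher in wild type (limma, adjusted p = 1.08e-05) and 0.40 in knockout (adjusted p = 0.00183). Foxp3, at the 64.7 to 79.9 percentiles, was 0.24 in wild type (adjusted p = 0.4) and 0.55 in knockout (adjusted p = 0.0276). Of 5 erythroid and platelet markers, 0 were called in wild type and 2 were lower in knockout. Between genotypes under anti-CD3 alone, 0 of these markers were called without block or weights on all arrays. With the replicate block, 2 CD8 and NK markers were higher and 2 lower in knockout. That fit also called 1 regulatory T cell marker lower and 1 erythroid or platelet marker higher. Its calls over all 16427 genes were 877 higher and 1077 lower. In replicates 1 and 2 alone, 4 of 8 regulatory T cell markers were lower, and 1 CD8 or NK marker was higher and 3 lower. There the calls over all genes were 308 higher and 1080 lower. Replicates 3 and 4 alone called 0 of these markers and 0 of all genes. The part of all these markers in the results was not tested.

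Of the promoter windows not printed, that of the second Egr2 start held 3 NFAT cores and 1 CArG box. The E-box (CACGTG) is the kind of element that basic helix-loop-helix repressors such as DEC1 bind. It was found once in 1 of 5 windows of Egr2 (27 bases before the start). Nfatc3 (143) and Rcan1 (191) each held it once in 1 of 2 windows. Of all windows 6.02% held it, a share per window and not per gene. No window of the 7 genes searched held the NR4A site (AAAGGTCA), found in 1.34% of windows. Nfatc2 had 3 NFAT cores in 1 of its 2 windows, at 239, 200 and 175 bases before the start.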
